A study of Mus musculus with 6 samples.

Results

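BMP, TGF-beta and activin signalling was examined in newborn mouse interscapular brown fat through 46 genes, chosen by name for their roles as ligands, receptors, Smads, Id targets, antagonists and latent binding proteins. Each of the 46 had a row in the deposited table, which lists 19241 genes. RNA of the whole depot was sequenced in bulk from 3 newborn mice with a floxed Fstl1 gene (Fstl1-floxed, called WT) and from 3 newborn mice lacking it in the Myf5 lineage (Myf5-Fstl1 KO, called KO). The labels do not say whether the WT animals also carried a Cre transgene, nor from which litters the animals came, and p-values measure the spread between these libraries. Myf5 is expressed in precursors of skeletal muscle and of much of the interscapular brown fat, so other cells of the depot, such as endothelium and macrophages, are not expected to lose the gene. Fstl1, a secreted glycoprotein, was at 54.4 to 130.04 FPKM (fragments per kilobase, a level adjusted for transcript length and library depth) in WT and at 7.93 to 13.1 FPKM in KO, 12.4% of the WT mean (limma, log2 fold change −2.79, adjusted p 0.00979). The exact, two-sided permutation test gave p 0.1, which is the lowest that 3 against 3 libraries allow.

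Ligands of this family bind pairs of type I and type II receptor kinases, which phosphorylate receptor Smads. BMP receptors act mainly on Smad1, Smad5 and Smad9, and TGF-beta and activin receptors mainly on Smad2 and Smad3; both kinds of receptor Smad join Smad4 and enter the nucleus, where the Id genes and the inhibitory Smad6 and Smad7 are known targets. In brown fat, BMP7 is known to promote brown adipocyte commitment, while TGF-beta and activin signals are known to restrain adipocyte differentiation.

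The depth was estimated from the steps between low FPKM values at 13900000 to 15050000 fragments per library. Every KO library had 59.5 to 60.8 FPKM of the Y-linked gene Ddx3y, against at most 0.23 FPKM in WT, and Xist was at 44.8 to 85.5 FPKM in WT, against no more than 0.92 FPKM in KO. Sex therefore coincided with genotype in these libraries, and the 2 cannot be told apart in any difference below. The brown adipocyte markers Ucp1 and Cidea (1299 to 1988 FPKM) were abundant in each library. Each library thus held brown adipocyte RNA, though these 2 genes do not tell which depot was taken. Elovl3 was at only 1.69 to 5.65 FPKM in KO, and some of the 8 markers examined moved with genotype. Ucp1 was at 4366 to 6255 FPKM in WT and 1695 to 3592 FPKM in KO (log2 fold change −1.08, limma, adjusted p 0.0804), and of 8 markers 2 passed, both lower in KO: Plin1 (−1.36, adjusted p 0.0267) and Elovl3 (−2.34, adjusted p 0.0151). In 4 of the 8 the groups did not overlap, while the 8 summed to 21180 to 26670 FPKM in WT and 20170 to 22150 FPKM in KO. Most of that sum was Fabp4, at 14000 to 17389 FPKM over the 6 libraries. The part of brown adipocytes in the values below was not tested. WT replicate 3 stood apart in 8 red cell markers, which summed to 6451 FPKM against 1345 to 2196 FPKM elsewhere, and KO replicate 1 stood apart in 8 skeletal muscle markers, at 289.9 FPKM against 1190 to 1729 FPKM. In bulk RNA, fewer cells of a type and less RNA per cell cannot be told apart.

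The target genes Id1, Id2 and Id3 and both inhibitory Smads were lower in KO without overlap of the groups, as were the endothelial receptor Acvrl1, the co-receptors Eng and Tgfbr3, and the ligands Tgfb1, Tgfb3 and Inhbb. Ltbp2 was lower as well. Bmp4, Bmp6, Acvr2b, Tgfbr2 and Smad1 were higher in KO, again with no overlap. None of these differences passed the test over all genes. Of 46 members, 41 reached the mean of 0.5 FPKM required for testing, and 0 passed an adjusted p of 0.05 in limma, while 13 had an unadjusted p under 0.05 (9 lower, 4 higher). Of all 13331 genes tested, 2.21% passed the adjusted threshold (1.21% higher and 1.01% lower in KO) and 19.2% had an unadjusted p under 0.05. Groups did not overlap in 17 of the 41 members (12 lower and 5 higher in KO), against 24.9% of all genes tested (11.4% lower and 13.6% higher). The median log2 fold change of the 41 members was −0.06, with 19 above and 22 below 0, beside 0.01 over all genes tested. With array weights, an alternative fit that weights libraries by their estimated quality, 14 members passed, beside 3181 of all genes. The weight estimate of that fit stopped before it converged. Without WT replicate 1, 3 members passed, beside 370 of all 13331 genes: Smad6 (log2 fold change −1.06, limma, adjusted p 0.0325), Tgfb1 (−0.78, 0.0415) and Eng (−0.90, 0.0425).

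**Figure D1:**
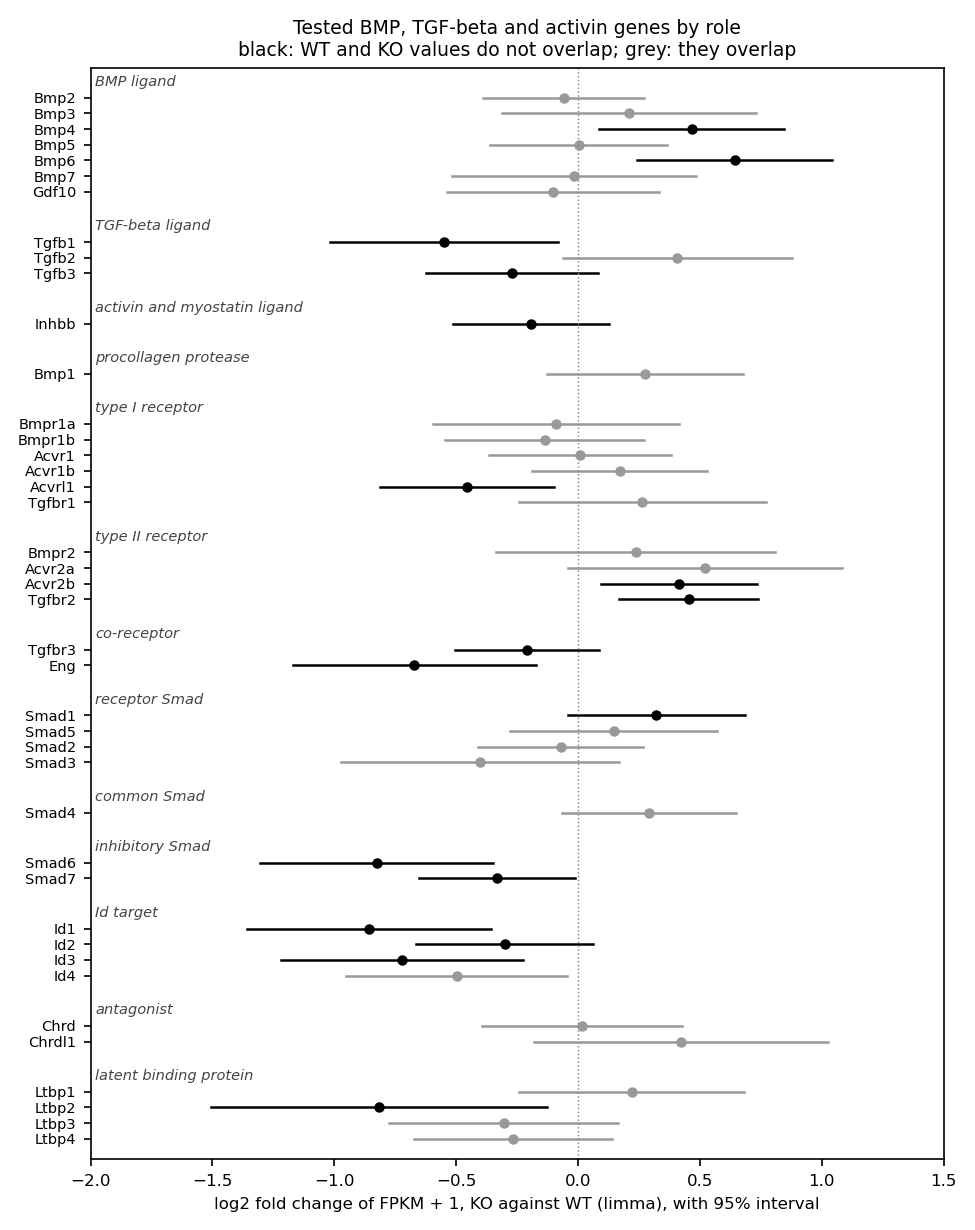
Log2 fold change of FPKM + 1 in KO against WT (x axis) for the 41 tested members, grouped by role, with the 95% interval from limma as a line; black marks the 17 members whose WT and KO values do not overlap. The Id genes, inhibitory Smads and co-receptors lie to the left of 0 and the type II receptors to the right, and no member passed an adjusted p of 0.05.

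The Id proteins are helix-loop-helix factors without a DNA-binding region, which sequester basic helix-loop-helix factors, and Id1 is a standard readout of BMP receptor activity. Values are given in the order of replicates 1, 2 and 3. Id1 (Entrez gene 15901, chr2:152736251-152737410 in GRCm38.p6) was at 64.3, 60.4 and 96.5 FPKM in WT, against 41.9, 47.2 and 30.8 FPKM in KO. The groups did not overlap, WT replicate 3 was the highest library and KO replicate 3 the lowest. Id1 in KO was at 54.2% of the WT mean (73.7 ± 19.8 against 39.95 ± 8.37 FPKM, SD, n = 3 each) and had a log2 fold change of −0.86 with a standard error of 0.22 and a 95% interval of −1.36 to −0.36 (limma, adjusted p 0.0831). Id3 (15903, chr4:136143822-136145392) was at 28.7, 29.05 and 49.8 FPKM in WT, against 22.7, 21.1 and 18.2 FPKM in KO. Its groups did not overlap either, and WT replicate 3 was again far above the other libraries. The log2 fold change of Id3 was −0.72 (SE 0.22, limma, adjusted p 0.123), and −0.47 without WT replicate 3 (adjusted p 0.214).

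Id2 (15902, chr12:25093799-25096092) lay within 38.7 to 39.2 FPKM in the WT libraries and at 33.6, 36.5 and 25.3 FPKM in KO, so that KO replicate 3 was the low library. Id2 had a log2 fold change of −0.30 (SE 0.16, 95% interval −0.67 to 0.06, limma, adjusted p 0.346), and −0.15 without KO replicate 3. Id4 (15904) was at 5.23, 3.94 and 4.55 FPKM in WT, against 2.34, 4.20 and 2.5 FPKM in KO, where KO replicate 2 fell inside the WT range (log2 fold change −0.50, SE 0.20, limma, adjusted p 0.225). Summed over the 4 Id genes, FPKM came to 137.0, 132.6 and 189.8 in WT and to 100.5, 109.0 and 76.8 in KO. Id1 made up 45.5% to 50.9% of that sum in WT and 40.1% to 43.3% in KO, while Id2 made up 20.5% to 29.6% in WT and 32.9% to 33.5% in KO. The share of Id1 was thus lower, and that of Id2 higher, in all 3 KO libraries.

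The start-site regions of Id genes, of Smad6 and of Bmp6 are shown because the Id genes and Smad6 had lower means and Bmp6 a higher mean in KO, and because Smad proteins bind short motifs near such targets. Each is the RefSeq window (GRCm38.p6) of 250 bases before to 50 after the annotated start, on the strand of the gene. RefSeq windows were matched for 33 of the 46 members. None was matched for Id1, which was therefore not searched. Capitals mark GGCGCC, a GC-rich element bound by BMP-activated Smads, and CAGAC or its reverse complement GTCTG, a Smad box. The windows are chr12:25096043-25096342 (minus strand) for Id2, chr4:136143572-136143871 (plus) for Id3, chr13:48260866-48261165 (plus) for Id4, chr9:64022010-64022309 (minus) for Smad6 and chr13:38345466-38345765 (plus) for Bmp6.
Id2: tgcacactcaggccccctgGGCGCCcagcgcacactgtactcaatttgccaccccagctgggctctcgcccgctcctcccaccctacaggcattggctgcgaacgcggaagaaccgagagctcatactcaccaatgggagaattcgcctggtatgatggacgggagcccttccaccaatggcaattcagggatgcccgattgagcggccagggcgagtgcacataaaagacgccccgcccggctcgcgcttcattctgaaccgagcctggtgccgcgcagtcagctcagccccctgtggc
Id3: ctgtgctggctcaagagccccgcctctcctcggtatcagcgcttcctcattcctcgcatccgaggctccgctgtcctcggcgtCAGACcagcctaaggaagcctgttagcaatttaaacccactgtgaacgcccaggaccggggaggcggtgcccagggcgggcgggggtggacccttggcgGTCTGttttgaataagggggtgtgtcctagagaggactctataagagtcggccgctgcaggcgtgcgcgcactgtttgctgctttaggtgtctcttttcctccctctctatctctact
Id4: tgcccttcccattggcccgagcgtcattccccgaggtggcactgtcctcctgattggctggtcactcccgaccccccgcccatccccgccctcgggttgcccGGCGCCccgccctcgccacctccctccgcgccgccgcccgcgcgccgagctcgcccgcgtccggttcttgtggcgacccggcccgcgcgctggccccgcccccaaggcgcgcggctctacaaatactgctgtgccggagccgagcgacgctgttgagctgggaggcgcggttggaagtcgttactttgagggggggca
Smad6: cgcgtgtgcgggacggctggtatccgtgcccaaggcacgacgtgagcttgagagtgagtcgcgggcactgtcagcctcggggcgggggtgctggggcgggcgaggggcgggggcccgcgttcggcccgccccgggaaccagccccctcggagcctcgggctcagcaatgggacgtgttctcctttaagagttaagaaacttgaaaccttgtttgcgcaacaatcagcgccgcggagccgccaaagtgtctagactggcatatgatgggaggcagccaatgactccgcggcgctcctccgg
Bmp6: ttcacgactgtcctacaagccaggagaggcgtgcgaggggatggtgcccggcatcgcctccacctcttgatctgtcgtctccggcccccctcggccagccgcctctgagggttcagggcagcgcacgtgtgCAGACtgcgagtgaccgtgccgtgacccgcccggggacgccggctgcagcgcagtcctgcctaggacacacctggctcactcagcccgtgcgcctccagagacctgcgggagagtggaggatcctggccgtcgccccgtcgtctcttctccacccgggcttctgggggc
Id2 and Id4 each held 1 GGCGCC, Id3 held 2 CAGAC boxes and Bmp6 1, and neither motif was found in the Smad6 window. Among 32817 windows of all genes, 11.9% held GGCGCC and 49.6% held CAGAC on either strand. Some members have more than 1 window, and overlapping windows of Ltbp4 and of Smad5 count the same GGCGCC again. Of the 41 windows of members 14 held GGCGCC and 20 held CAGAC, or 12 and 18 of the 33 members. The member windows with GGCGCC were 59.3% to 81.3% GC, and no allowance was made for GC content.

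Smad6 and Smad7 are the inhibitory Smads, which block receptors and receptor Smads and are induced by the signals they damp. Smad6 (17130, chr9:63953076-64022085) was at 2.66, 4.52 and 5.33 FPKM in WT, against 1.72, 1.73 and 2.09 FPKM in KO. The KO libraries were close together and all below the lowest WT library, WT replicate 1. Smad6 in KO was at 44.3% of the WT mean, a log2 fold change of −0.83 with a standard error of 0.21 (95% interval −1.30 to −0.35, limma, adjusted p 0.0812, the lowest among the members). From its length and the estimated depth, the Smad6 values rested on about 71 to 234 reads per library. Smad7 (17131) was at 1.93, 1.84 and 2.33 FPKM in WT, against 1.36, 1.49 and 1.36 FPKM in KO, without overlap (69.0% of the WT mean, log2 fold change −0.33, SE 0.14, limma, adjusted p 0.246). Both inhibitory Smads summed to 4.59 to 7.66 FPKM in WT and to 3.08 to 3.45 FPKM in KO.

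The receptor Smads did not share that pattern. Smad1 (17125) was at 7.93, 7.96 and 8.08 FPKM in WT, against 9.80, 12.5 and 8.68 FPKM in KO, higher in each KO library (log2 fold change 0.32, SE 0.16, limma, adjusted p 0.319), though by 0.19 without KO replicate 2. Smad5, the most abundant receptor Smad, ran from 12.5 to 19.7 FPKM in WT and from 14.7 to 18.1 FPKM in KO (log2 fold change 0.15, adjusted p 0.72). Smad9 was below the level for testing, at 0.29 to 0.65 FPKM in WT and 0.17 to 0.40 FPKM in KO. Smad2, which carries TGF-beta and activin signals, lay at 9.08 to 10.7 FPKM in WT and 8.35 to 10.6 FPKM in KO (log2 fold change −0.07, 95% interval −0.41 to 0.27). Smad3 was at 15.96, 9.54 and 10.7 FPKM in WT and 12.2, 8.42 and 6.29 FPKM in KO, with overlapping groups (log2 fold change −0.40, SE 0.25, limma, adjusted p 0.424; −0.20 without KO replicate 3). Smad4, the partner of both branches, was within 26.3 to 27.04 FPKM in the KO libraries, and WT replicate 1, at 26.6 FPKM, fell inside that range while WT replicates 2 and 3 were at 18.9 and 20.1 FPKM. The 5 receptor Smads summed to 45.8 ± 7.97 FPKM in WT and 45.8 ± 6.63 FPKM in KO (SD, n = 3 each).

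**Figure D2:**
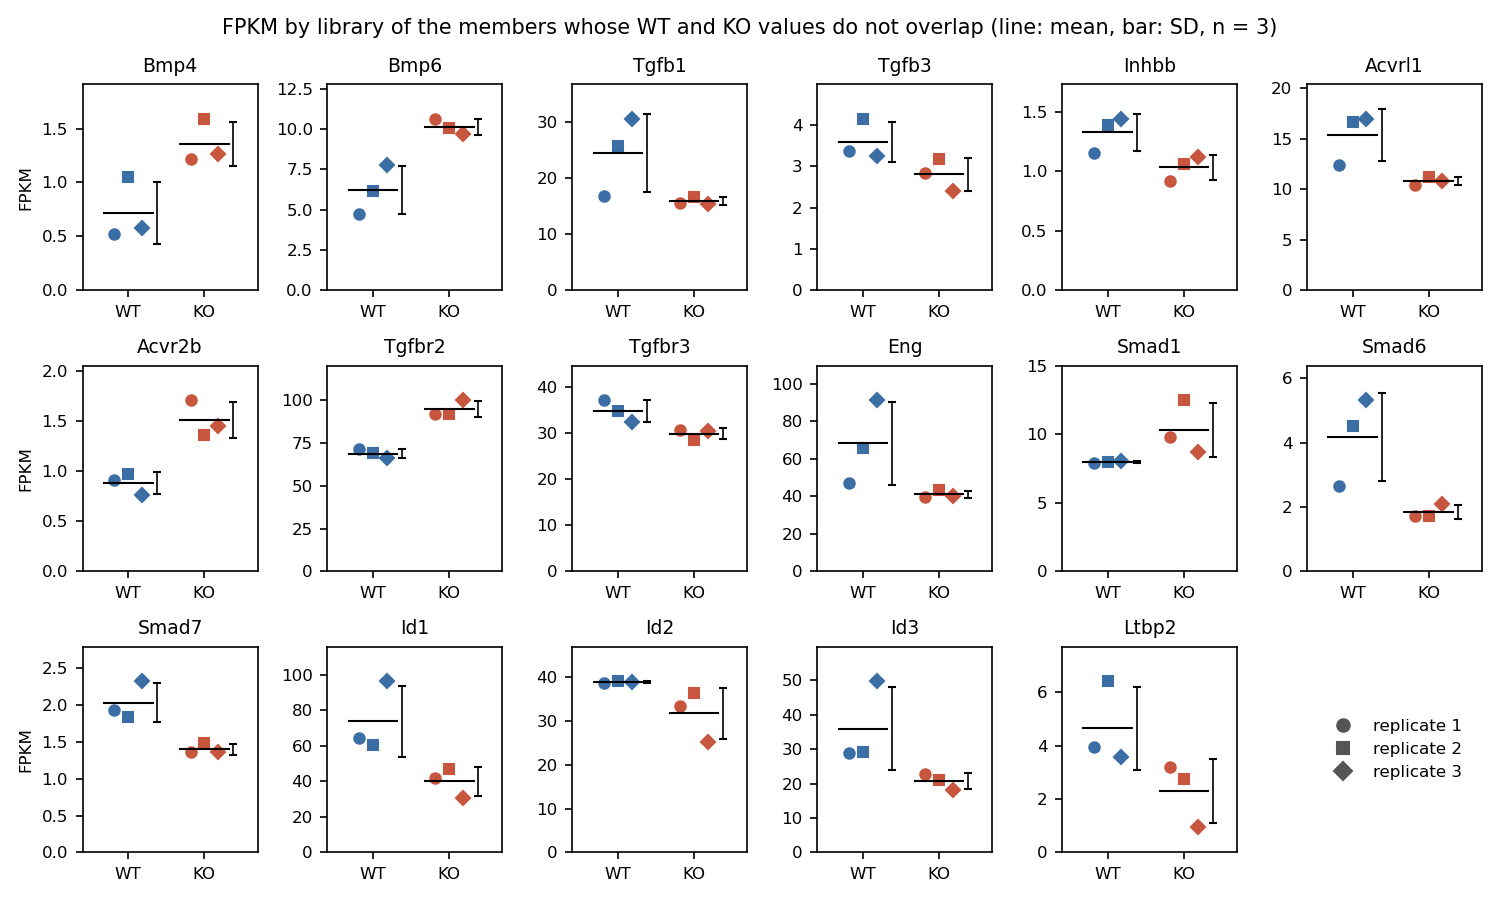
FPKM in each library (y axis, starting at 0) for the 17 members whose WT and KO values do not overlap; symbols mark the replicate, the line is the mean and the bar the SD of 3 libraries. WT replicate 3 is the highest library in Eng (91.3 FPKM), Id1 (96.5 FPKM) and Id3 (49.8 FPKM), and in Tgfb1 WT replicate 1 (16.9 FPKM) lies just above KO replicate 2 (16.7 FPKM).

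Among the receptors, Acvrl1 (ALK1), a type I receptor of endothelium, and Eng (endoglin), its co-receptor, were the lower ones. Acvrl1 (11482, chr15:101128522-101145336) was at 12.4, 16.7 and 17.0 FPKM in WT, against 10.5, 11.2 and 10.8 FPKM in KO. The KO libraries spread over less than 1 FPKM and all lay under WT replicate 1. Acvrl1 in KO was at 70.5% of the WT mean (log2 fold change −0.46, SE 0.16, 95% interval −0.81 to −0.10, limma, adjusted p 0.167). Eng (13805, chr2:32646595-32682669) was at 47.3, 65.7 and 91.3 FPKM in WT, against 39.4, 43.2 and 40.3 FPKM in KO. It was 60.1% of the WT mean (log2 fold change −0.67, SE 0.22, limma, adjusted p 0.145), and its log2 fold change was −0.44 without WT replicate 3 (adjusted p 0.294). Tgfbr3 (betaglycan, a co-receptor that presents TGF-beta to its receptors) was at 37.3, 34.8 and 32.4 FPKM in WT and 30.7, 28.6 and 30.5 FPKM in KO (log2 fold change −0.21, SE 0.13, limma, adjusted p 0.42).

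Endothelial markers overlapped between the groups. Summed over 8 markers they came to 530.5, 672.5 and 707.6 FPKM in WT and to 594.6, 613.8 and 560.1 FPKM in KO. Of the 8 markers, 0 passed in limma, 4 had a log2 fold change above 0 and 0 had groups without overlap. Cdh5 had a log2 fold change of −0.09 (adjusted p 0.803) and Pecam1 of 0.11 (adjusted p 0.697), whereas Cldn5 had −0.71 (adjusted p 0.237). Markers of mural cells, the smooth muscle and pericytes of vessels, were lower in KO: 8 markers summed to 148.5, 191.5 and 176.1 FPKM in WT and to 117.4, 143.6 and 140.1 FPKM in KO. All 8 had a log2 fold change below 0, 3 were without overlap and 1 passed, Cspg4 (−1.19, limma, adjusted p 0.0435). Pdgfrb (−0.06) and Myh11 (−0.08) hardly moved. Des was at 16.9, 36.8 and 46.6 FPKM in KO, lowest in KO replicate 1, the library with the low skeletal muscle markers. Macrophage markers summed to 89.2 to 129.7 FPKM in WT and 126.4 to 171.7 FPKM in KO, with 0 of 8 past the threshold, all 8 above 0 in log2 fold change and 3 without overlap. Fibroblast and preadipocyte markers summed to 1090 to 1467 FPKM in WT and 1183 to 2046 FPKM in KO, with 0 of 8 past the threshold, 7 of 8 above 0 and 0 without overlap. Cartilage markers were near 0, with sums of 0.83 to 1.44 FPKM, and Col2a1 at 0.11 FPKM or less. The part of endothelium, mural cells, macrophages and fibroblasts in the values of the members was not tested.

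**Figure D3:**
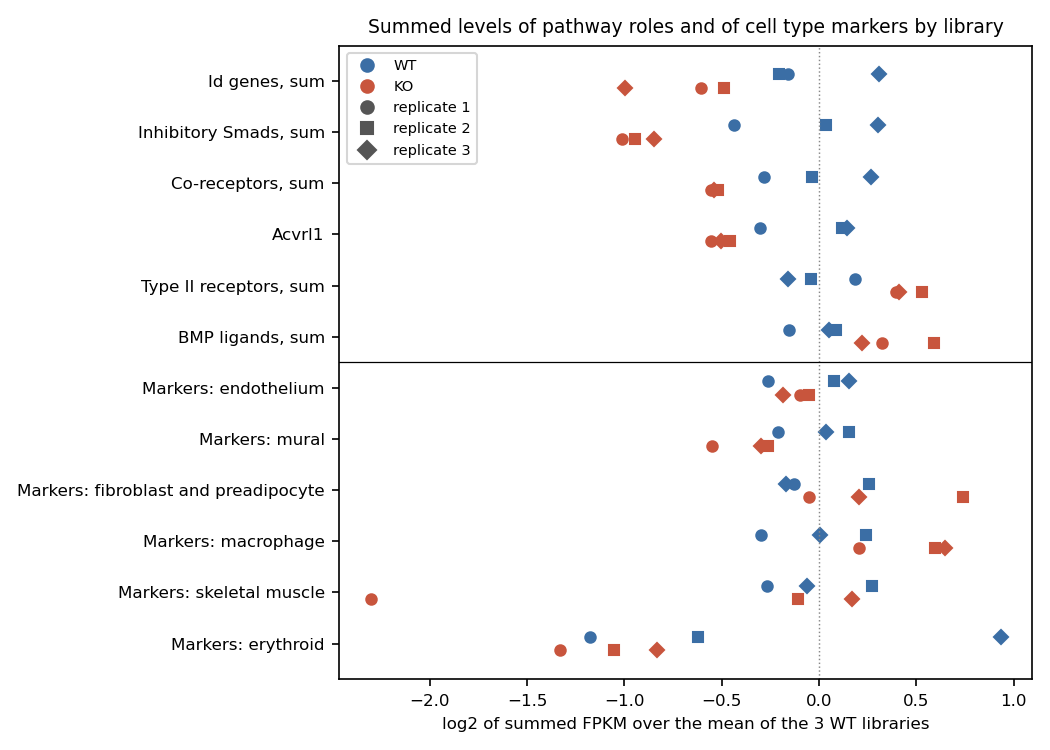
Log2 of the level over the mean of the 3 WT libraries (x axis) for summed pathway roles and Acvrl1 (above the line) and for summed markers of 6 cell types (below the line); colour marks the group and the symbol the replicate. The sums of the Id genes, inhibitory Smads and co-receptors in KO all lie below the WT libraries. The endothelial sums of WT (530.5 to 707.6 FPKM) and KO (560.1 to 613.8 FPKM) overlap, and the part of endothelium in the members was not tested.

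Type II receptors, the constitutively active kinases of each receptor pair, were higher in sum in each KO library: 113.0, 96.5 and 89.01 FPKM in WT and 130.8, 143.4 and 132.1 FPKM in KO. Tgfbr2 (21813, chr9:116087695-116175363), the TGF-beta type II receptor and, by its mean over the 6 libraries, the most abundant of the 46 members (in WT the mean of Id1 was higher), made up 63.1% to 75.9% of that sum over the 6 libraries. It was at 71.3, 69.0 and 66.1 FPKM in WT, against 92.1, 91.7 and 100.2 FPKM in KO. Both groups were tight and did not overlap: KO was at 137.6% of the WT mean, a log2 fold change of 0.45 with a standard error of 0.13 (95% interval 0.17 to 0.74, limma, adjusted p 0.0989). Acvr2b, an activin and myostatin receptor, was at 0.91, 0.97 and 0.76 FPKM in WT, against 1.71, 1.36 and 1.45 FPKM in KO (171.2% of the WT mean, log2 fold change 0.41, SE 0.14, limma, adjusted p 0.165; 0.71 with a pseudocount of 0.1). Acvr2a, its more abundant relative, was at 19.96, 13.2 and 11.2 FPKM in WT, against 18.7, 28.7 and 17.3 FPKM in KO, where the groups overlapped (log2 fold change 0.52, limma, adjusted p 0.294; 0.31 without KO replicate 2). Bmpr2, the BMP type II receptor, ran from 10.9 to 20.9 FPKM in WT and from 13.1 to 21.7 FPKM in KO (log2 fold change 0.24, 95% interval −0.34 to 0.81).

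The other type I receptors overlapped between the groups. Bmpr1a, the main BMP type I receptor here, was at 13.3 to 23.5 FPKM in WT and 13.2 to 19.6 FPKM in KO (log2 fold change −0.09, 95% interval −0.60 to 0.41). Tgfbr1, the partner of Tgfbr2, was at 14.4, 9.10 and 7.76 FPKM in WT, against 12.5, 14.3 and 10.5 FPKM in KO (log2 fold change 0.26, limma, adjusted p 0.556). Acvr1 (ALK2), a BMP and activin type I receptor, was at 9.11 to 12.1 FPKM in WT and 9.03 to 11.7 FPKM in KO (log2 fold change 0.01, 95% interval −0.36 to 0.38). Acvr1b, an activin type I receptor, was at 2.47 to 3.12 FPKM in WT and 2.86 to 3.96 FPKM in KO, and Bmpr1b at 0.49 to 1.15 and 0.40 to 0.72 FPKM. Acvr1c, a further type I receptor that is not among the members, was at 9.98 to 20.8 FPKM in WT and 13.7 to 20.5 FPKM in KO. Without Acvr1c, the 6 type I receptors among the members summed to 58.04 ± 6.28 FPKM in WT and 54.5 ± 5.51 FPKM in KO (SD, n = 3 each). Acvrl1 took 19.1%, 29.8% and 31.9% of that sum in WT and 18.5% to 21.8% in KO, so WT replicate 1 resembled the KO libraries in this share.

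The BMP ligands were low, and Bmp6 led them in every library. Bmp6 (12161, chr13:38345716-38500314) was at 4.75, 6.17 and 7.76 FPKM in WT, against 10.6, 10.1 and 9.68 FPKM in KO. All KO libraries lay above all WT libraries, and the KO libraries differed little among themselves. KO was at 162.6% of the WT mean (6.23 ± 1.51 against 10.1 ± 0.478 FPKM, SD, n = 3 each) and had a log2 fold change of 0.64 with a standard error of 0.18 (95% interval 0.24 to 1.04, limma, adjusted p 0.0969). Bmp6 overlaps Txndc5 and 4930579J19Rik in the annotation, and the strand handling of the counting is not given in the sources used here, so reads of these genes may be mixed. Among the other members without overlap of the groups, the same holds for Eng (Fpgs, Mir1954 and LOC115489602), Tgfbr2 (Gm31292), Tgfbr3 (Gm8145), Smad7 (Gm41776), Ltbp2 (D030025P21Rik) and Bmp4 (Gm15217 and Gm15222). Bmp4 (12159) was at 0.52, 1.05 and 0.58 FPKM in WT, against 1.22, 1.59 and 1.26 FPKM in KO, 189.3% of the WT mean, on about 14.1 to 44.2 reads per library (log2 fold change 0.47, SE 0.17, limma, adjusted p 0.181). On a pseudocount of 0.1 the log2 fold change of Bmp4 was 0.88 (adjusted p 0.192).

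Bmp7, the ligand known for brown fat commitment, was at 0.87, 1.13 and 0.95 FPKM in WT, against 0.97, 1.66 and 0.43 FPKM in KO. Its KO libraries held both the highest and the lowest value, and the log2 fold change of −0.02 had a 95% interval of −0.52 to 0.48 (limma, adjusted p 0.979). Bmp2 stayed between 1.01 and 1.45 FPKM, Bmp5 between 1.13 and 1.78 FPKM, Gdf10 between 1.90 and 3.50 FPKM and Bmp3 between 1.41 and 3.65 FPKM over the 6 libraries, each with overlapping groups. The 7 ligands summed to 14.02, 16.6 and 16.2 FPKM in WT and to 19.5, 23.5 and 18.1 FPKM in KO, of which Bmp6 made up 33.9% to 48.0% in WT and 42.9% to 54.6% in KO. Bmp1, which despite its name is a procollagen protease that also cleaves the BMP antagonist chordin, was at 10.7 to 15.7 FPKM in WT and 14.8 to 19.0 FPKM in KO (log2 fold change 0.27, limma, adjusted p 0.438).

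Tgfb1 was the leading TGF-beta ligand, with 69.2% to 85.1% of the summed FPKM of the 3 genes. Tgfb1 (21803, chr7:25687002-25705077) was at 16.9, 25.7 and 30.5 FPKM in WT, against 15.6, 16.7 and 15.3 FPKM in KO. WT replicate 1 was only just above the KO libraries, while WT replicates 2 and 3 were well above them (65.1% of the WT mean, log2 fold change −0.55, SE 0.21, limma, adjusted p 0.198). Tgfb3 was at 3.37, 4.14 and 3.25 FPKM in WT, against 2.84, 3.17 and 2.39 FPKM in KO, a narrow separation (log2 fold change −0.27, SE 0.16, limma, adjusted p 0.38). Tgfb2 pointed the other way in 2 of 3 KO libraries, with 2.49, 2.59 and 2.08 FPKM in WT and 2.28, 4.07 and 4.42 FPKM in KO (log2 fold change 0.41, limma, adjusted p 0.325). Tgfb2 made up 5.80% to 11% of the ligand sum in WT and 11% to 20% in KO.

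Activin ligands were scarce. Inhbb, the activin B subunit, was at 1.15, 1.39 and 1.44 FPKM in WT, against 0.92, 1.06 and 1.12 FPKM in KO, without overlap (log2 fold change −0.19, SE 0.14, limma, adjusted p 0.489). Inhba, the activin A subunit, was at 0.18 FPKM or less in every library, about 1.06 to 4.11 reads. Mstn (myostatin), which muscle secretes to limit its own growth, was at 0.18 to 0.61 FPKM in WT, against 0.03, 0.38 and 0.56 FPKM in KO. Its lowest library, KO replicate 1, was also the one with the low skeletal muscle markers, and the part of muscle in the Mstn values was not tested.

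Latent TGF-beta binding proteins hold TGF-beta in the matrix until it is released. Ltbp3, the most abundant, was at 42.6, 53.9 and 66.6 FPKM in WT, against 51.0, 46.2 and 34.0 FPKM in KO, with overlap (log2 fold change −0.30, limma, adjusted p 0.461). Ltbp2, which resides in elastic fibres and does not bind latent TGF-beta, was at 3.96, 6.42 and 3.56 FPKM in WT, against 3.21, 2.74 and 0.95 FPKM in KO. WT replicate 2 was the high library and KO replicate 3 the low one (49.5% of the WT mean, log2 fold change −0.82, SE 0.30, limma, adjusted p 0.193), and without KO replicate 3 its log2 fold change was −0.48. Ltbp1 lay at 2.18 to 3.65 FPKM in WT and 2.54 to 4.18 FPKM in KO, and Ltbp4 at 9.21 to 12.6 and 7.32 to 10.3 FPKM. Antagonists bind BMP ligands outside the cell. Of the 4 antagonists among the members, only Chrdl1, which lies on the X chromosome, exceeded 1 FPKM. Chrdl1 was at 8.76, 8.83 and 4.52 FPKM in WT, against 8.76, 13.5 and 8.02 FPKM in KO (log2 fold change 0.42, limma, adjusted p 0.425). Chrd stayed between 0.34 and 0.94 FPKM, Nog (noggin) between 0.27 and 0.93 FPKM and Grem1 (gremlin) at 0.25 FPKM or less. Some extracellular regulators outside the members also exceeded 1 FPKM, such as Twsg1 (mean over the 6 libraries 16.7 FPKM) and Bmper (6.88 FPKM).

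**Figure D4:**
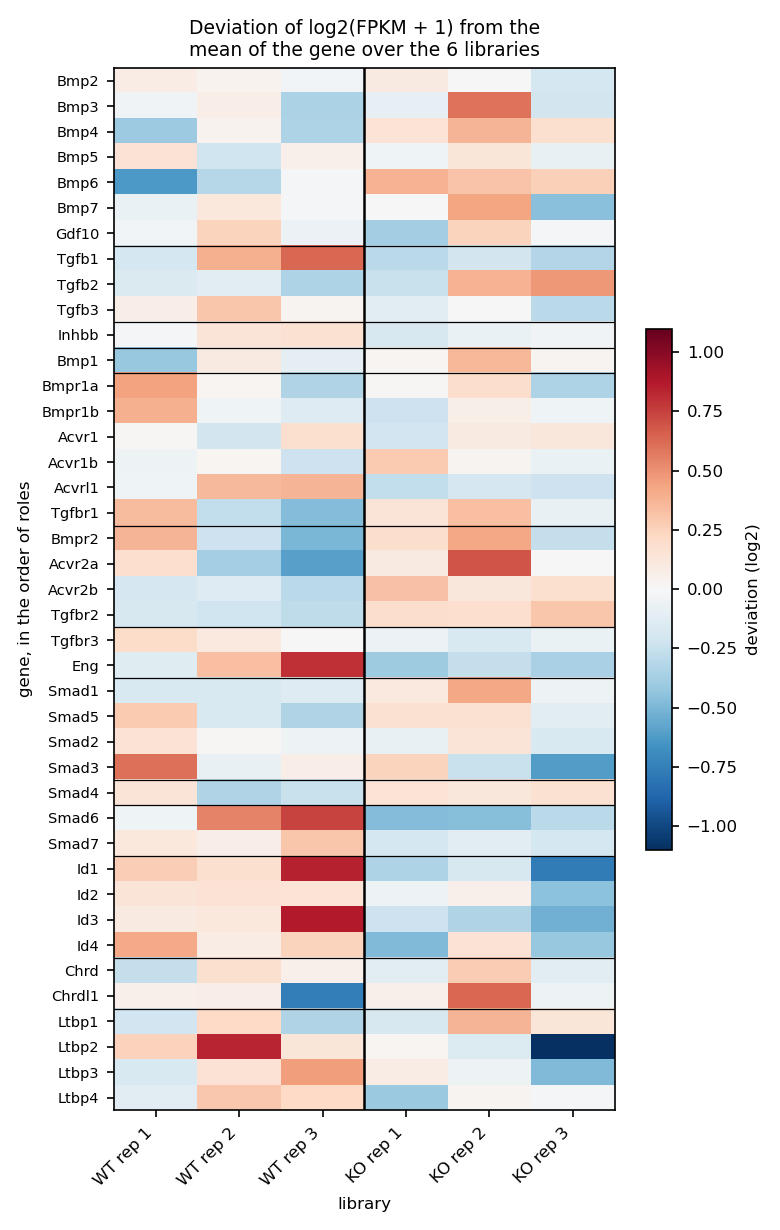
Deviation of log2(FPKM + 1) from the mean of each gene over the 6 libraries (colour, red above and blue below the mean) for the 41 tested members in the order of their roles; columns are libraries and the thick line separates WT from KO. WT replicate 3 holds the highest value of 8 of the 12 members that are lower in KO without overlap, Eng, Id1 and Id3 among them.

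The libraries did not contribute evenly to these differences. Among the 12 members lower in KO without overlap, WT replicate 3 was the highest library in 8, WT replicate 2 in 3 and WT replicate 1 in 1. WT replicate 3, the library with the high red cell markers, also had the lowest value of all libraries in 11 of the 41 tested members. KO replicate 3 was the lowest in 12 and KO replicate 1 in 10. Whether red cell RNA had a part in the values of WT replicate 3 was not tested. Single libraries also set the size of several differences between overlapping groups. Leaving out 1 library at a time, the log2 fold change ran from 0.15 (without WT replicate 3) to 0.56 (without WT replicate 2) in Chrdl1, from 0.09 (without WT replicate 3) to 0.50 (without WT replicate 1) in Tgfbr1 and from 0.05 (without WT replicate 3) to 0.48 (without WT replicate 1) in Bmpr2. It ran from −0.46 (without WT replicate 1) to −0.14 (without KO replicate 3) in Ltbp3, from 0.09 (without KO replicate 2) to 0.38 (without WT replicate 2) in Ltbp1 and from 0.14 (without WT replicate 1) to 0.39 (without WT replicate 2) in Bmp1. In Ltbp4 it was −0.13 without KO replicate 1, in Acvr1b 0.07 without KO replicate 1, in Tgfb2 0.27 without KO replicate 3 and 0.63 without KO replicate 1, and in Smad3 −0.20 without WT replicate 1 and −0.63 without KO replicate 1.

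Other genes of the pathway were examined from a list of 90, of which 84 had a row and 58 could be tested. In limma 3 passed an adjusted p of 0.05 (2 higher, 1 lower), beside 2.21% of all genes tested, and the median log2 fold change was 0.01. Tgif1, a homeodomain protein that represses Smad2 and Smad3 target genes, rose from 3.37, 3.11 and 3.15 FPKM in WT to 6.79, 9.05 and 9.95 FPKM in KO. All KO libraries were far above WT, and the log2 fold change was 1.17 (SE 0.17, limma, adjusted p 0.0172). Rgma, a membrane-anchored BMP co-receptor, rose from 4.0, 4.25 and 5.02 FPKM to 9.64, 9.82 and 8.62 FPKM (log2 fold change 0.94, SE 0.15, limma, adjusted p 0.0236). It overlaps noncoding genes in the annotation, whose reads may be mixed with its own. Gdf5, a BMP-type ligand, fell from 1.40, 0.83 and 0.87 FPKM to 0.22, 0.12 and 0.15 FPKM, the lowest of these on about 4.19 reads (log2 fold change −0.80, SE 0.16, limma, adjusted p 0.0423). With a pseudocount of 0.1 the log2 fold change of Gdf5 was −2.09 (limma, adjusted p 0.0415). Without the filter on low values none of these 3 genes passed (adjusted p 0.0707 to 0.0723). Tgif1 also missed the threshold without WT replicate 2 (adjusted p 0.0838), WT replicate 3 (0.081) or KO replicate 2 (0.0584). Rgma missed it without any 1 library except WT replicate 1 (0.0521 to 0.108), and Gdf5 whichever library was left out (0.0584 to 0.122) and with the replicate block (0.0613).

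The other genes with the smallest p-values of each role did not pass. Inha, the inhibin alpha subunit that opposes activin assembly, was at 1.90, 2.64 and 2.39 FPKM in WT, against 5.32, 4.36 and 13.5 FPKM in KO (log2 fold change 1.26, limma, adjusted p 0.0877), with KO replicate 3 far above the rest. Gdf11, a relative of myostatin, was at 0.58 to 0.80 FPKM in WT and 0.49 to 0.84 FPKM in KO. Tgfbr3l, a betaglycan-like gene, was at 2.88 to 4.14 FPKM in WT and 5.79 to 7.41 FPKM in KO (log2 fold change 0.74, adjusted p 0.0625), and Hfe2 (hemojuvelin), a muscle and liver BMP co-receptor, at 2.38 to 3.70 and 0.66 to 2.11 FPKM, with KO replicate 1 lowest. Outside the cell, Thbs1 (thrombospondin 1, an activator of latent TGF-beta) was at 16.4 to 20.6 FPKM in WT and 23.4 to 33.2 FPKM in KO, Bmper at 5.40 to 5.56 and 7.45 to 9.57 FPKM, and Lrrc32 (GARP, which anchors latent TGF-beta on cells) at 6.96 to 10.97 and 3.73 to 6.15 FPKM. Inside the cell, Ppm1a, a Smad phosphatase, was at 64.4 to 94.2 FPKM in WT and 115.4 to 124.3 FPKM in KO, and Tab1, an adaptor of the kinase TAK1, at 8.32 to 9.50 and 5.92 to 6.57 FPKM. Of the target genes, Gata2 was at 4.62 to 6.84 FPKM in WT and 8.11 to 9.39 FPKM in KO, Ctgf (a TGF-beta and YAP target) at 7.92 to 9.44 and 5.79 to 6.74 FPKM, and Tgfbi at 6.30 to 7.75 and 8.21 to 10.9 FPKM.

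Fst (follistatin), an activin-binding relative of the deleted Fstl1 that was chosen after its values were seen, was at 3.79, 3.77 and 1.89 FPKM in WT, against 6.70, 5.52 and 5.29 FPKM in KO (log2 fold change 0.75, limma, adjusted p 0.109).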

How the data were processed

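The deposited table holds FPKM values, 1 column per library, which the authors rounded to 2 decimals; the unit is named per the file headers. HISAT2 2.0.4, Bowtie2 2.2.5, DESeq2 and the build mm10 are named, per the submitters' processing notes, with no role; the counting tool, annotation, strand handling and filters are not given in the sources used here. The group and replicate number of a library came from its title.

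FPKM are not counts, so log2(FPKM + 1) was tested by limma (version 3.58.1, R 4.3.3), using its moderated fit with a trend on mean level and no covariates. The 13331 genes whose mean over the 6 libraries reached 0.5 FPKM entered the fit, and the Benjamini-Hochberg adjustment ran over all of them, with 0.05 as the threshold. Fold changes on this scale understate those of low genes. The fit was tested on simulated data. The 46 members and the pathway and marker lists were chosen with earlier results of these data known, so their counts are descriptions. Members past the threshold, or with no overlap between WT and KO, were to be given in full, as were pathway genes past the threshold; up to 3 pathway genes per role with the smallest p-value were named.

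The depth was estimated from low values of single-transcript genes of 500 to 1300 nt, of which 78.2% to 82.3% lay within 0.2 of a whole read at the estimated depth and a length offset of 50 nt. Reads per gene are estimates from FPKM, mean transcript length (GENCODE vM21) and that depth. Gene positions and promoter windows came from RefSeq (GRCm38.p6, the assembly that mm10 names). Alternatives were other pseudocounts, filters and scalings, eBayes without trend or robust, array weights, a replicate block and leaving out each library.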

Additional observations from a re-analysis of the deposited data

How the results depend on the processing

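Members past the threshold numbered 0 in the fit as reported, 14 with array weights, a fit whose weight estimate stopped before it converged, and 0 to 3 when 1 library was left out, the 3 without WT replicate 1. In the other alternatives none passed. All genes past the threshold numbered 295, with 35 without the filter on low values, 3181 with array weights and 31 to 370 when 1 library was left out (39 without WT replicate 2, 31 without WT replicate 3, and 121, 89 and 87 without KO replicates 1, 2 and 3). Of the other pathway genes, 3 passed, 0 without the filter, 16 with array weights and 0 to 2 when 1 library was left out. Members without overlap numbered 17 (41.5%, beside 24.9% of all genes tested). With a filter at 5 FPKM, which removes low members by its construction, they numbered 10 (43.5%, beside 25.8%). They ran from 17 to 23 when 1 library was left out, while the share of all genes was 30.6% to 44.7%. Without WT replicate 3 it was 41.5% of members beside 34.4% of all genes, and without WT replicate 1 56.1% beside 44.7%. Fstl1 missed the threshold only without the filter (log2 fold change −2.79, limma, adjusted p 0.0606), where the standard error was 0.36 in place of 0.33 and 19241 genes were tested, and ran from −3.01 to −2.39 when 1 library was left out.

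WT and KO share replicate numbers, but the pairing check found correlations of only 0.068, 0.043 and 0.043 between libraries of equal number, and no pairing was assumed. Under the replicate block, 167 genes, 0 members and 2 other pathway genes passed. Every library correlated best with its own number, as a hint from the data only.

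Of the 41 members, 31 kept their direction in every alternative run for them (15 for 23 members, 14 for the 18 that the 5 FPKM filter removes). For the 17 without overlap this was largely fixed beforehand, since leaving out a library cannot turn their sign and some settings leave the fold change as it is. Sign changes were in 10 members, each with overlapping groups: Bmp5 (−0.0475 with quantile normalization, −0.0124 with median-of-ratios scaling), Acvr1 (−0.0152 and −0.0099), Chrd (−0.0021 with quantile normalization, −0.18 with array weights) and Ltbp1 (−0.14 with array weights). With 1 library left out, log2 fold changes ran from −0.121 to 0.0214 in Bmp2, −0.0405 to 0.36 in Bmp3, −0.108 to 0.0839 in Bmp5, −0.239 to 0.209 in Bmp7, −0.251 to 0.0643 in Gdf10, −0.28 to 0.109 in Bmpr1a, −0.241 to 0.0235 in Bmpr1b, −0.0892 to 0.1173 in Acvr1 and −0.117 to 0.108 in Chrd. The cause was not tested. Inhba, Grem1, Nog, Mstn and Smad9 averaged under 0.5 FPKM, too low here to test a difference.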
